A study of Mus musculus with 2 samples.

Results

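The MHC class I presentation genes are 10 genes that were chosen by symbol: H2-K1, H2-D1, B2m, H2-Q6, H2-Q7, H2-T23, Tap1, Tap2, Tapbp and Nlrc5. Each symbol was found on 1 row of the deposited gene lists, so all 10 were read out of 32245 symbols. They were followed in single immune cells of mouse tumours, in 1 library with the genotype label Tdg KO (Tdg_KO) and 1 with the label WT (Tdg_WT). Tdg encodes thymine DNA glycosylase, a DNA repair enzyme that also takes part in removing DNA methylation. Both libraries came from KP tumours that grew as subcutaneous allografts and were collected on day 14 after inoculation. Live CD45-positive single cells were sorted, and RNA 3′ ends were counted as unique molecular identifiers (UMIs) in droplets. The labels do not say whether the tumour cells or the host carried the Tdg genotype, which strain was used, or how many animals gave each library. With 1 library per genotype there is no replicate, so no test was made between genotypes. All intervals below are exact 95% intervals that cover counting error only.

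Class I molecules show peptides from inside the cell to CD8 T cells and are read by receptors of natural killer (NK) cells. A heavy chain pairs with the light chain beta-2-microglobulin, and the peptide is carried into the endoplasmic reticulum by the transporter TAP and placed with the help of tapasin. Nearly every nucleated cell makes class I, lymphocytes make much of it, and interferon gamma raises the whole set through IRF1 and the transactivator NLRC5.

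H2-K1 (ENSMUSG00000061232, chr17:33996017-34000347, minus strand of GRCm38) and H2-D1 (ENSMUSG00000073411, chr17:35262730-35267499) encode the classical heavy chains H-2K and H-2D. H2-Q6 (chr17:35424850-35430055) and H2-Q7 (chr17:35439155-35443773) encode nonclassical heavy chains of the Qa-2 group. H2-T23 (chr17:36029773-36032855, minus strand) encodes Qa-1, the heavy chain that the NK receptor CD94/NKG2A reads. B2m lies apart on chromosome 2 (chr2:122147686-122153083). Tap1 (chr17:34187553-34197225) and Tap2 (chr17:34203527-34216321) encode the subunits of TAP, and Tapbp (chr17:33915899-33929292) encodes tapasin. Nlrc5 (chr8:94434356-94527272) encodes the transactivator. All 10 are annotated as protein-coding genes in GENCODE M21.

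The promoters of H2-K1, H2-D1, H2-Q6 and H2-Q7 are shown because they share elements while the ratios of these 4 heavy chain genes between the libraries differed in neutrophil-like cells. That of H2-T23 held the Y box alone among the motifs searched and is not printed. That of Tap1 is shown because Tap1 in macrophage-like cells had the highest measured ratio among the 10 genes in the classes compared. The sequences are from RefSeq on GRCm38.p6, read 5′ to 3′ along the gene. Of the 10 genes, 8 had an entry, and those of Tap2 and Nlrc5 were not analysed here. Capitals mark exact matches, on either strand, to the kappa B core GGGATTCCC, the interferon response element AAGTGAAA, the cyclic AMP response core TGACG and the Y box CCAAT.
H2-K1 promoter, chr17:34000328-34000457, minus strand: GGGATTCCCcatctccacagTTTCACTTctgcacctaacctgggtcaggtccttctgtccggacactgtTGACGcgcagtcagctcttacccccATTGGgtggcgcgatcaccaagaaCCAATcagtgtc
H2-D1 promoter, chr17:35262924-35263053, plus strand: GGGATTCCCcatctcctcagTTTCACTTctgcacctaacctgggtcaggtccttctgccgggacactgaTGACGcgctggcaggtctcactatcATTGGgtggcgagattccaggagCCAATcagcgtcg
H2-Q6 promoter, chr17:35424678-35424807, plus strand: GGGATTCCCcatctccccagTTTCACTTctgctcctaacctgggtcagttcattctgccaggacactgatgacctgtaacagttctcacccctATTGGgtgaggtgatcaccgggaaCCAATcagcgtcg
H2-Q7 promoter, chr17:35439023-35439152, plus strand: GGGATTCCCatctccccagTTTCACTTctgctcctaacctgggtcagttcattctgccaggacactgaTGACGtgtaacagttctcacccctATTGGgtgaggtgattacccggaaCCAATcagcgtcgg
Tap1 promoter, chr17:34187306-34187605, plus strand: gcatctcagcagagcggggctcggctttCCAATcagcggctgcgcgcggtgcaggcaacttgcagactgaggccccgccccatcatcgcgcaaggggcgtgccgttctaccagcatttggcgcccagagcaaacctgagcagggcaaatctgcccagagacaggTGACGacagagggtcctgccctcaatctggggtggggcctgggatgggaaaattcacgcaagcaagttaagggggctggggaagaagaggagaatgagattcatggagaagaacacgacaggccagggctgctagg
The stretches of these 4 heavy chain genes cover 130 bases and that of Tap1 covers 300 bases. The kappa B core is bound by NF-kappa B factors, the interferon response element by IRF factors, and the other elements belong to the module on which NLRC5 acts. In windows of 300 bases, GGGATTCCC stood in 116 of 32851 RefSeq promoters (0.353%) and in 4 of the 8 genes here, H2-K1, H2-D1, H2-Q6 and H2-Q7. AAGTGAAA stood in 1.60% of all promoters and in the same 4 genes. TGACG stood in 20.8% of promoters and in 5 of the 8 (H2-K1, H2-D1, H2-Q7, B2m and Tap1), and CCAAT in 37.4% of promoters and in all 8. A match describes the letters in these windows and nothing about factor binding.

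The Tdg_KO library held 52586319 UMIs in 5896 barcodes and the Tdg_WT library 39819010 UMIs in 5604 barcodes. After filtering, 5693 and 5504 cells were kept, with median depths of 6419 and 5378 UMIs per cell. Cells were clustered without the 10 genes, and 27 of 36 clusters were named from marker genes, in 17 classes written as cell-like for that reason. Clusters left unnamed held 24.4% of Tdg_KO cells and 15.6% of Tdg_WT cells. Barcodes with genes of 2 lineages made up 10.6% of the cells in Tdg_KO and 6.41% in Tdg_WT, and 8 barcode sequences occurred in both libraries. No doublet caller was run. Ratios of some genes in neutrophil-like, macrophage-like, cDC2-like and B-like cells are also given without barcodes of 2 lineages. Levels, heavy chain shares and counts of other pathway genes are given with them only. The median mitochondrial share of UMIs per cell was higher in Tdg_KO in each of the 16 classes whose levels were read, and its part in the ratios was not tested. Tdg itself was at 26.5 counts per 1000000 UMIs (CPM) over all Tdg_KO cells and 25.1 CPM over all Tdg_WT cells, a ratio of 1.06 (0.974 to 1.15). The 3′ end counts need not fall in a deleted stretch, so Tdg does not check the genotype label.

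Levels are given as CPM of the summed UMIs of a class. Reads of near-identical copies may be split or lost in the authors' counting. Of 411 windows of 90 bases in the last 500 bases of the transcript, 10.9% of those of H2-Q6 and 13.4% of those of H2-T23 occurred exactly in another gene, against 0% for the other 8. The counts of H2-Q6 and H2-T23 are therefore less certain.

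Levels were read in 16 classes that had 20 cells or more in both libraries. Among them, regulatory T (Treg)-like cells had the highest level of both classical heavy chains in both libraries. H2-K1 was at 4397 CPM in Tdg_KO and 4404 CPM in Tdg_WT Treg-like cells. Its lowest level was 1328 CPM in monocyte-like cells of Tdg_KO and 715 CPM in dendritic cDC1-like cells of Tdg_WT. That is a span of 3.31-fold in Tdg_KO and 6.16-fold in Tdg_WT. The cDC1-like class of Tdg_WT held 48 cells, and that of Tdg_KO had H2-K1 at 1583 CPM. In cDC1-like cells 6 T cell marker genes summed to 958 CPM in Tdg_KO and 39.9 CPM in Tdg_WT. Their part in the span was not tested. CD4 T-like cells came second in both libraries, with 3371 and 3510 CPM. In Tdg_KO the interval of the CD4 T-like cells overlapped that of ILC2-like cells, and in Tdg_WT it stood apart from its neighbours. H2-D1 was at 4014 CPM in Tdg_KO and 4396 CPM in Tdg_WT Treg-like cells, and spanned less than H2-K1, 2.45-fold and 3.55-fold. B2m was also highest in Treg-like cells, at 4815 and 4471 CPM, and lowest in basophil-like cells, at 2012 CPM in Tdg_KO and 1050 CPM in Tdg_WT.

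The nonclassical chains H2-Q6 and H2-Q7 had the widest spans among the heavy chains. H2-Q7 was at 1584 CPM in Tdg_KO and 1583 CPM in Tdg_WT Treg-like cells. Monocyte-like cells had 159 and 126 CPM of it and macrophage-like cells 151 and 162 CPM, levels that in Tdg_KO did not differ beyond counting error. Its span over the classes was 10.5-fold in Tdg_KO and 12.9-fold in Tdg_WT. The lowest H2-Q7 level in Tdg_WT was 123 CPM in cDC1-like cells (48 cells), beside 424 CPM in those of Tdg_KO. H2-Q6 was high in a slightly different set of cells: ILC2-like cells led in Tdg_KO with 449 CPM and NK-like cells in Tdg_WT with 414 CPM, in both cases with intervals that overlapped those of the next class. H2-Q6 was lowest in macrophage-like cells of Tdg_KO (42.3 CPM) and in monocyte-like cells of Tdg_WT (33.8 CPM), a span of 10.6-fold and 12.3-fold. H2-T23 had another order. Plasmacytoid dendritic (pDC)-like cells led with 613 and 774 CPM, followed by Treg-like cells with 486 and 559 CPM, and both steps lay beyond counting error in both libraries. Neutrophil-like cells were lowest for H2-T23, with 170 and 120 CPM.

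The transporter genes were highest in Treg-like and dendritic cells. Tap1 was at 188 CPM in cDC1-like and 184 CPM in Treg-like cells of Tdg_KO, and at 166 and 193 CPM in the same classes of Tdg_WT, so the leading class differed within overlapping intervals. Migratory dendritic-like cells followed in Tdg_KO and stood between them in Tdg_WT, with 156 and 169 CPM. Tap2 had the same leaders, with 176 CPM in cDC1-like and 163 CPM in Treg-like cells of Tdg_KO and with 135 and 183 CPM in those of Tdg_WT. The lowest Tap1 levels were 40.7 CPM in basophil-like cells of Tdg_KO and 25.7 CPM in macrophage-like cells of Tdg_WT. Tapbp was highest in pDC-like cells (308 CPM in Tdg_KO and 331 CPM in Tdg_WT) and lowest in naive T-like cells (106 and 93.2 CPM). The pDC-like class of Tdg_WT held 25 cells, and in Tdg_KO its interval overlapped that of neutrophil-like cells. The naive T-like interval overlapped that of the nearest class in both libraries. Nlrc5 was highest in CD8 T-like cells, with 56.3 and 52.6 CPM, where its interval overlapped that of the next class in both libraries. It was lowest in macrophage-like cells, with 6.73 and 4.11 CPM, again with overlap in both libraries. Its level in macrophage-like cells rests on 7 and 4 UMIs, so the span of 8.36-fold in Tdg_KO and 12.8-fold in Tdg_WT is uncertain.

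**Figure D1:**
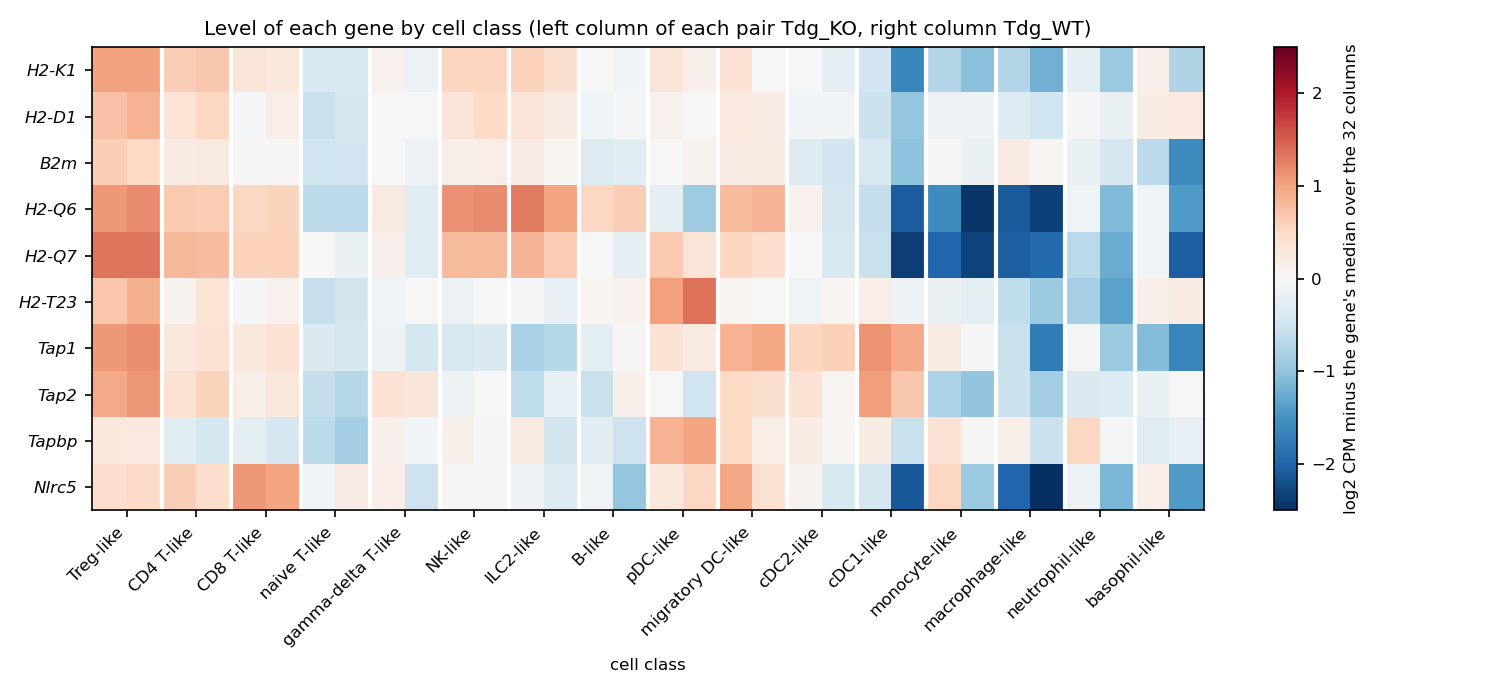
Level of each of the 10 genes (rows) in 16 cell classes (paired columns, Tdg_KO left and Tdg_WT right), as log2 CPM minus the gene's median over the columns, so that red is above and blue below that median. Treg-like cells are red for all 10 genes, monocyte-like and macrophage-like cells are dark blue for H2-Q6 and H2-Q7, and the pDC-like columns are the darkest red of the H2-T23 row.

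At a common depth of 1000 UMIs per cell, H2-K1 was detected in 95.2% of Treg-like cells of Tdg_KO (93.0% to 96.9%) and 95.7% of those of Tdg_WT (93.4% to 97.3%). Without thinning it was detected in 100% of both. In neutrophil-like cells the thinned shares for H2-K1 were 62.5% in Tdg_KO (54.7% to 69.8%) and 47.8% in Tdg_WT (43.3% to 52.3%), against 67.2% and 59.7% unthinned. Thinning left out 73 Tdg_KO and 189 Tdg_WT neutrophil-like cells with fewer UMIs. In macrophage-like cells they were 68.0% (62.2% to 73.4%) and 55.3% (48.7% to 61.8%), against 90.5% and 86.7% unthinned. Nlrc5 was detected in 8.24% of thinned CD8 T-like cells of Tdg_KO (5.63% to 11.6%) and 4.82% of those of Tdg_WT (2.72% to 7.83%), against 36.7% and 32.7% unthinned. None of these cell classes should lack class I, so a share due to free RNA could not be read from a class without it.

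The 10 genes followed each other to different degrees. Over 20 points (10 classes in each of the 2 libraries), the Pearson correlation of log2(CPM + 10) with the mean standardised level of the 10 genes was 0.97 for H2-K1, 0.93 for H2-D1, 0.90 for Tap2 and 0.90 for H2-Q7. It was 0.88 for both H2-T23 and H2-Q6, 0.86 for Tap1, 0.74 for Nlrc5, 0.66 for B2m and 0.40 for Tapbp. Each gene is part of that mean, and the points of a library share its depth and handling. Among 7248 ranked genes, those outside the 10 that were most like the mean were Sigirr (0.96), Sytl2 (0.95), Pkp3 (0.95), Dnajc1 (0.94) and Ccdc6 (0.94). Sigirr encodes a receptor that damps interleukin-1 family signals, and Sytl2 a vesicle transport protein. Most like H2-Q7 were Sigirr, Ppm1b, I730030J21Rik, Rasa1 and H2afv, and most like Nlrc5 were Mkrn2, Med14, Lck, Gm43065 and Inpp4b. Lck, the kinase at the T cell receptor, reached 0.92 with Nlrc5. Among the genes most like Tap1 were Sv2c, Ctla4 and Tnfrsf18, and Ctla4 and Tnfrsf18 are also markers by which Treg-like cells were named. Most like B2m were Fam173a, Egln1, Plaat3, Spcs1 and Tmem50a, the highest at 0.85.

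The libraries were compared in the 10 classes that had 100 cells or more in both. A gene counted as measured in a class with at least 50 UMIs over both libraries. Of the 97 measured pairs of a gene and a class, 90 lay within 1.5-fold, 6 were at least 1.5-fold higher in Tdg_KO and 1 was at least 1.5-fold lower. Per class, between 5.04% (NK-like) and 26.9% (neutrophil-like) of all measured genes passed 1.5-fold in either direction. In NK-like, CD4 T-like, Treg-like, CD8 T-like and naive T-like cells the genes were near parity. Of the 10 genes, 0 passed 1.5-fold in NK-like cells, where 5.04% of all 8984 measured genes did. The count was also 0 in CD4 T-like cells (6.27% of all measured genes), Treg-like cells (5.21%), CD8 T-like cells (6.82%) and naive T-like cells (8.56%). The median log2 ratio of the 10 genes was -0.02 in NK-like, -0.04 in CD4 T-like, -0.06 in Treg-like, -0.03 in CD8 T-like and -0.01 in naive T-like cells. The medians of all measured genes there were 0.06, 0.08, 0.01, 0.06 and 0.01.

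In these lymphocytes H2-K1 lay near parity between the libraries and H2-D1 was lower in Tdg_KO. H2-K1 was at 3188 CPM in Tdg_KO and 3175 CPM in Tdg_WT NK-like cells, a ratio of 1.00 (0.985 to 1.02). H2-D1 was at 3006 and 3418 CPM there, a ratio of 0.880 (0.863 to 0.897). The H2-D1 ratio was 0.868 (0.841 to 0.897) in CD8 T-like, 0.894 (0.872 to 0.915) in CD4 T-like, 0.913 (0.891 to 0.935) in Treg-like and 0.920 (0.873 to 0.969) in naive T-like cells. The H2-K1 ratio in the same classes ran between 0.960 in CD4 T-like and 1.03 in CD8 T-like cells. H2-T23 was also lower in Tdg_KO, with ratios of 0.834 (0.774 to 0.899) in CD4 T-like, 0.869 (0.811 to 0.931) in Treg-like and 0.913 (0.856 to 0.975) in NK-like cells. The differences are small, and how far 2 libraries of 1 genotype would differ was not measured. H2-Q7 was at 1081 CPM in Tdg_KO and 1083 CPM in Tdg_WT NK-like cells and its ratio held 1 within the interval there, as it did for Treg-like and for CD8 T-like cells. H2-Q7 was higher in Tdg_KO in naive T-like cells, at 1.15 (1.05 to 1.26), and in CD4 T-like cells, at 1.05 (1.01 to 1.09). Nlrc5 held a ratio of 1 within its interval in all 5 of these classes, at 1.05 (0.843 to 1.31) in NK-like and 1.07 (0.854 to 1.34) in CD8 T-like cells. A further cluster led by Foxp3 and Il2ra, with 262 Tdg_KO and 120 Tdg_WT cells, was left unnamed because 44.0% of its barcodes held genes of 2 lymphocyte subsets, and is not in the Treg-like values.

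As shares of heavy chain UMIs, H2-K1 and H2-D1 differed between the libraries in opposite directions. H2-K1 made up a larger share of the UMIs of the 5 heavy chain genes in Tdg_KO than in Tdg_WT in 16 of 16 classes, with intervals apart in 11. H2-D1 made up a smaller share in 16 of 16 classes, with intervals apart in 14. In CD8 T-like cells H2-K1 made up 41.3% of heavy chain UMIs in Tdg_KO (40.7% to 42.0%) and 38.3% in Tdg_WT (37.6% to 39.0%). H2-D1 made up 35.9% and 39.4% in the same cells. In neutrophil-like cells H2-K1 made up 37.9% in Tdg_KO and 30.8% in Tdg_WT, and H2-D1 47.3% and 56.6%. In basophil-like cells H2-K1 made up 38.6% and 27.7%, and H2-D1 44.0% and 60.2%. The Tdg_KO basophil-like cells also held more T cell RNA, with 1766 CPM for 6 T cell markers against 451 CPM in Tdg_WT. In cDC1-like cells the markers summed to 958 and 39.9 CPM, and in ILC2-like cells to 968 and 207 CPM. In neutrophil-like cells they summed to 1195 and 600 CPM, and in monocyte-like cells to 384 and 193 CPM. They were lower in Tdg_KO in pDC-like (1095 and 1334 CPM) and B-like cells (1598 and 1747 CPM). The part of T cell RNA in the shares was not tested, and the shares are not given without barcodes of 2 lineages. Both shares are parts of the same sum, so the count for H2-K1 and that for H2-D1 are largely the same observation, and a share can go against the level. In neutrophil-like cells the H2-D1 share was lower in Tdg_KO while its level was higher (ratio 1.09, but 0.968 with median ratio scaling), and likewise in macrophage-like cells (1.12, but 0.950 with every cell weighted equally). All classes come from the same pair of libraries, so the 16 are not independent. Heavy chain UMIs per B2m UMI were 2.27 in Tdg_KO and 2.39 in Tdg_WT NK-like cells, and 0.991 and 0.912 in macrophage-like cells.

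**Figure D2:**
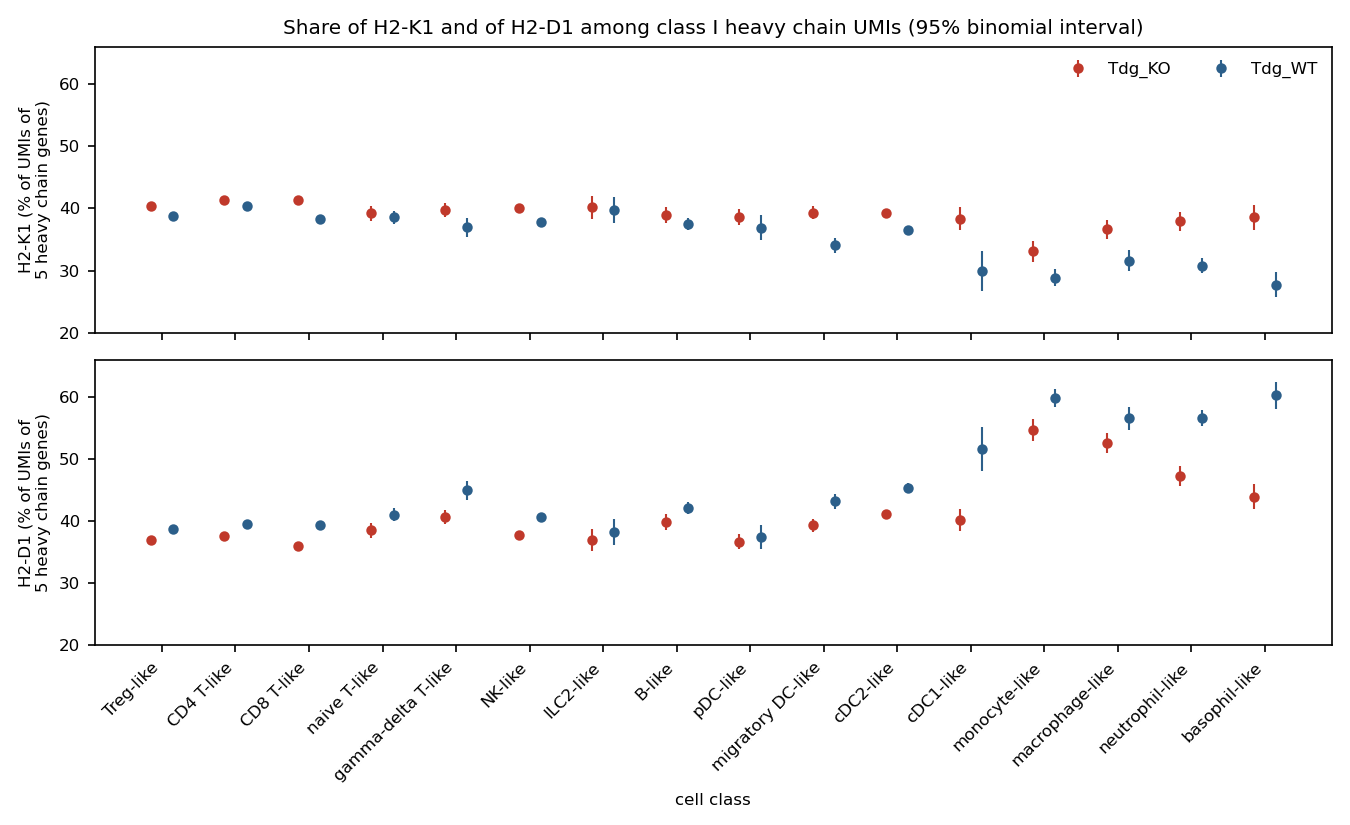
Share of H2-K1 (top) and H2-D1 (bottom) in the UMIs of the heavy chain genes H2-K1, H2-D1, H2-Q6, H2-Q7 and H2-T23, in percent on an axis that starts at 20, for 16 cell classes in Tdg_KO (red, left) and Tdg_WT (blue, right) with 95% binomial intervals. The red point is above the blue in all 16 classes for H2-K1 and below it in all 16 for H2-D1, with the widest gap in basophil-like cells.

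Among the 10 genes, the highest measured ratio was that of Tap1 in macrophage-like cells. Of 9 measured genes, 2 were at least 1.5-fold higher in Tdg_KO and 0 were lower, where 15.6% of the 3348 measured genes were that much higher and 21.2% passed in either direction. Tap1 was at 58.7 CPM in Tdg_KO (61 UMIs) and 25.7 CPM in Tdg_WT (25 UMIs), a ratio of 2.28 (1.41 to 3.80), and 98.1% of all measured genes had a lower ratio. Tapbp was at 186 and 115 CPM, a ratio of 1.61 (1.27 to 2.05). H2-K1 was at 1330 and 953 CPM, a ratio of 1.40 (1.28 to 1.52). H2-D1 (1.12) and B2m (1.11) were closer to parity. H2-Q7, at 0.930 (0.741 to 1.17), and Tap2, at 1.27 (0.849 to 1.91), held 1 within their intervals. The median log2 ratio of the 9 genes was 0.29, beside 0.09 for all measured genes. The 6 T cell markers summed to 98.1 CPM in Tdg_KO and 88.4 CPM in Tdg_WT macrophage-like cells, and without barcodes holding any T cell marker UMI the Tap1 ratio was 2.47 (1.47 to 4.29), that of Tapbp 1.69 and that of H2-K1 1.32. Without barcodes of 2 lineages these ratios were 2.37, 1.63 and 1.35. The median mitochondrial share was 1.60% in Tdg_KO and 0.593% in Tdg_WT macrophage-like cells, and its part was not tested.

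The values depended on which clusters were counted as macrophage-like. A cluster led by Apoe and C1qa, with 220 Tdg_KO and 85 Tdg_WT cells, was left unnamed because 87.9% of its barcodes held T cell and phagocyte genes. With it in the class, Tap1 (1.48, 1.21 to 1.81) was below 1.5-fold and Tapbp was at 1.51, while H2-Q7 (1.70, 1.58 to 1.84), H2-Q6 (1.86, 1.61 to 2.15) and H2-K1 (1.55, 1.49 to 1.61) were past it. After thinning to 1000 UMIs per cell, Tapbp was at 1.47 (0.915 to 2.41) and Tap1 had too few UMIs to count.

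The macrophage-like class held 2 clusters in different proportions. The cluster led by C1qb and C1qa had 241 Tdg_KO and 138 Tdg_WT cells, and the cluster led by Arg1 and Spp1 had 54 and 111. In the C1qb cluster Tap1 was at 69.7 CPM in Tdg_KO and 38.4 CPM in Tdg_WT, a ratio of 1.82 (1.08 to 3.19). Tapbp had a ratio of 1.32 (1.01 to 1.75) and H2-K1 of 1.20 (1.08 to 1.32) there. In the Arg1 cluster H2-K1 was at 946 and 676 CPM, a ratio of 1.40 (1.16 to 1.68), while Tap1 had 3 and 5 UMIs, too few to read. Within the C1qb cluster 13.7% of all measured genes passed 1.5-fold. Tapbp, past 1.5-fold in the whole class, was below it in the C1qb cluster, and the interval of Tap1 was wide.

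Neutrophil-like cells had 3 of 9 measured genes at least 1.5-fold higher in Tdg_KO and 0 lower. The share of all 4687 measured genes was 20.7% higher and 26.9% in either direction, so the count stands in a class where many genes passed that threshold. H2-K1 was at 1868 CPM in Tdg_KO and 1159 CPM in Tdg_WT, a ratio of 1.61 (1.51 to 1.72). H2-Q6 was at 168 and 85.1 CPM, a ratio of 1.97 (1.55 to 2.51), and Tap1 at 83.4 and 45.3 CPM, a ratio of 1.84 (1.31 to 2.59). H2-Q7 (1.47), Tapbp (1.45) and H2-T23 (1.42) were below the threshold with intervals above 1. H2-D1 was at 2329 and 2131 CPM, a ratio of 1.09 (1.03 to 1.16), and Tap2 was at 66.5 and 67.0 CPM. The median log2 ratio of the 9 genes was 0.54, beside 0.18 for all measured genes.

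T cell RNA was also higher in the neutrophil-like cells of Tdg_KO. The 6 T cell markers summed to 1195 CPM in Tdg_KO and 600 CPM in Tdg_WT, with any of them in 21.6% and 17.9% of cells. The 10 macrophage markers summed to 846 and 819 CPM. Among the 189 Tdg_KO and 564 Tdg_WT cells without any T cell marker UMI, H2-K1 had a ratio of 1.27 (1.13 to 1.44), H2-Q6 of 2.08 (1.2 to 3.4) and Tap1 of 1.48 (0.801 to 2.63). So 2 of the 3 genes past 1.5-fold, H2-K1 and Tap1, were below it in these cells, and the Tap1 interval then held 1. Without barcodes of 2 lineages, the ratios of H2-K1 and Tap1 were 1.31 and 1.28. Over all settings run, H2-K1 lay between 1.27 and 1.68, and H2-Q6 between 1.53 and 2.08 where it was measured. In the neutrophil-like cluster led by G0s2 and Il1f9 (156 and 391 cells), H2-K1 was at 2016 and 1314 CPM, a ratio of 1.53 (1.43 to 1.65). In the shallow cluster led by S100a9 and S100a8 (85 and 296 cells), H2-K1 was at 456 and 520 CPM, a ratio of 0.876 (0.594 to 1.26).

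**Figure D3:**
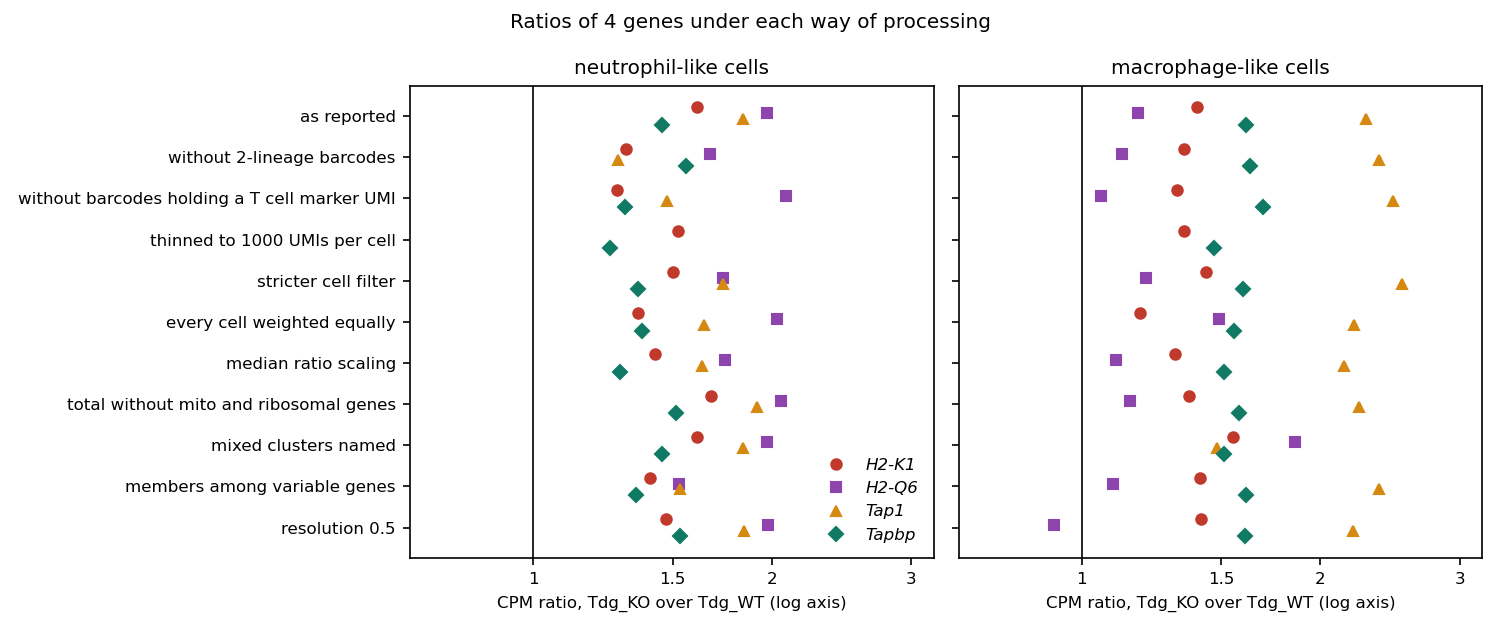
Ratio of CPM, Tdg_KO over Tdg_WT, on a log axis, for H2-K1, H2-Q6, Tap1 and Tapbp in neutrophil-like (left) and macrophage-like (right) cells, with 1 row for each way of processing and a point for each gene that had enough UMIs. In neutrophil-like cells H2-K1 and Tap1 lie closest to 1 in the rows without barcodes of 2 lineages or with a T cell marker UMI, while in macrophage-like cells Tap1 stays right of 1 in every row that has its point and is lowest, at 1.48, with mixed clusters named.

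The remaining classes showed smaller or less certain differences. In cDC2-like cells 0 of 10 genes passed 1.5-fold, where 10.2% of all measured genes did. H2-K1 was at 2199 CPM in Tdg_KO and 1852 CPM in Tdg_WT, a ratio of 1.19 (1.15 to 1.23), H2-Q6 at 197 and 134 CPM (1.47, 1.31 to 1.65), and H2-T23 at 279 and 313 CPM (0.890, 0.819 to 0.968). Macrophage markers summed to 865 CPM in Tdg_KO and 220 CPM in Tdg_WT cDC2-like cells, and T cell markers to 1800 and 1515 CPM. Their part in these ratios was not tested as a whole. Barcodes of 2 lineages made up 17.6% of Tdg_KO and 6.47% of Tdg_WT cDC2-like cells, and without them H2-K1 had a ratio of 1.09 (1.05 to 1.13), H2-Q6 of 1.23 (1.07 to 1.40) and H2-Q7 of 1.18 (1.09 to 1.26). The class held 4 clusters in different proportions. In the largest, led by Cd209a and Ccl17 (135 and 74 cells), H2-K1 had a ratio of 1.05 (1.01 to 1.09), H2-Q6 of 1.21 (1.07 to 1.37) and H2-Q7 of 1.10 (1.03 to 1.18). In the 66 and 72 cDC2-like cells without a T cell marker UMI, H2-K1 had a ratio of 1.10 (0.982 to 1.24) and H2-D1 of 0.867 (0.795 to 0.947), while H2-Q6 had 2.95 (1.74 to 5.21) and H2-Q7 had 1.72 (1.22 to 2.43). In gamma-delta T-like cells 0 of 9 genes passed 1.5-fold, where 11% of all measured genes did, and 8.18% were that much higher. H2-K1 was at 2381 and 1979 CPM there, a ratio of 1.20 (1.13 to 1.28), and H2-Q7 at 685 and 510 CPM (1.34, 1.19 to 1.52). Macrophage markers summed to 401 CPM in Tdg_KO and 106 CPM in Tdg_WT gamma-delta T-like cells.

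In B-like cells Tap2 and Nlrc5 passed 1.5-fold in opposite directions. Tap2 was lower in Tdg_KO, at 57.9 CPM (63 UMIs) against 92.3 CPM (163 UMIs) in Tdg_WT, a ratio of 0.627 (0.461 to 0.844). Nlrc5 was higher, at 24.8 CPM (27 UMIs) against 13.6 CPM (24 UMIs), a ratio of 1.83 (1.01 to 3.31). Of all 5529 measured genes in the class, 3.71% were that much lower, 5.28% that much higher and 8.99% either. T cell markers summed to 1598 CPM in Tdg_KO and 1747 CPM in Tdg_WT B-like cells, and 24.3% and 24.5% of these barcodes held genes of 2 lineages. Without those barcodes the Tap2 ratio was 0.821, within 1.5-fold, as it was with every cell weighted equally (0.763) and at a clustering resolution of 0.5 (0.675). Nlrc5 was under 50 UMIs without those barcodes. H2-K1 (1.04), H2-D1 (0.947) and B2m (0.956) were near parity in B-like cells.

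**Figure D4:**
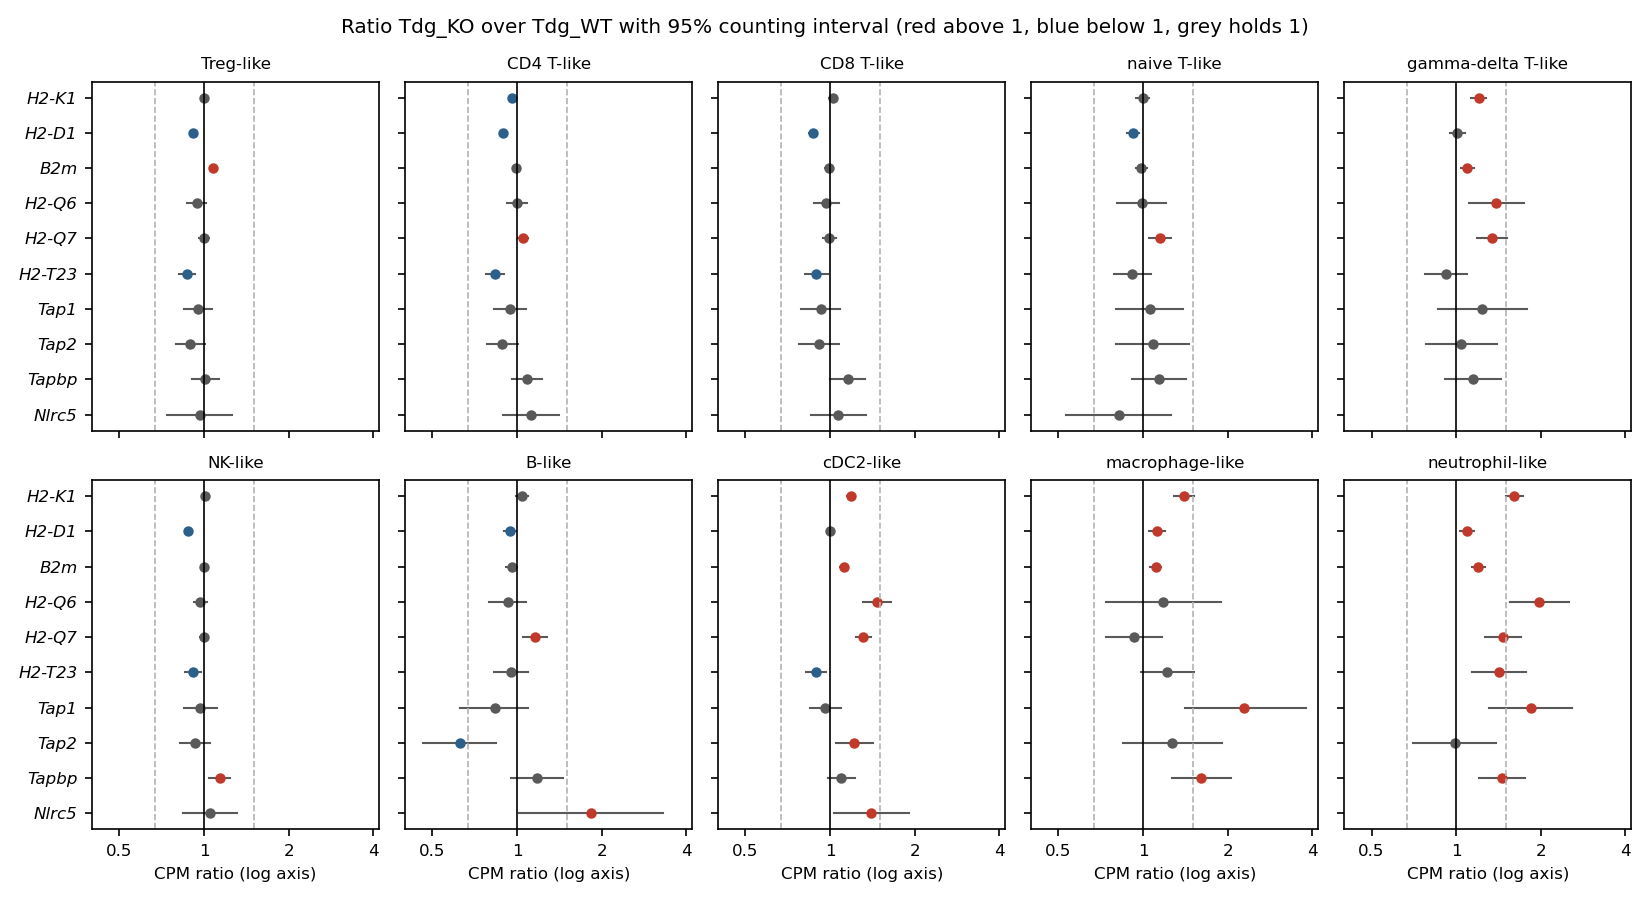
Ratio of CPM, Tdg_KO over Tdg_WT, on a log axis with 95% counting intervals, for the 10 genes (rows) in each of the 10 compared classes (panels). Dashed lines stand at 1.5-fold in either direction. Points of Treg-like, CD4 T-like, CD8 T-like, naive T-like and NK-like cells lie near 1, with H2-D1 left of it, those of H2-K1, H2-Q6 and H2-Q7 in gamma-delta T-like cells lie right of it, and Tap1 in macrophage-like cells lies farthest to the right.

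Other genes of the pathway were counted on lists. The list of peptide supply and loading holds 10 genes for the immunoproteasome, its activator and the chaperones of the loading complex. In neutrophil-like cells 5 of its 9 measured genes were at least 1.5-fold higher in Tdg_KO and 0 lower (median log2 ratio 0.69). Of all measured genes there, 20.7% were that much higher. The counts on lists in neutrophil-like cells include barcodes with T cell marker UMIs, whose part in them was not tested. Those in macrophage-like cells pool clusters whose proportions differed between the libraries, and the part of that difference was not tested. Psmb10 was at 90.7 CPM in Tdg_KO and 48.3 CPM in Tdg_WT, a ratio of 1.88, Psmb8, the most abundant, at 348 and 235 CPM (1.48), and the chaperone gene Canx at 112 and 118 CPM (0.950). In macrophage-like cells 3 of 9 passed, all higher (median 0.29): the chaperone genes Calr (1.64), Pdia3 (1.63) and Canx (1.61). There 15.6% of all measured genes were that much higher. The immunoproteasome subunit genes stood closer to 1 in macrophage-like cells, with Psmb8 at 560 and 479 CPM (1.17) and Psmb10 at 0.974. Of the 10 measured in NK-like, CD4 T-like, Treg-like, CD8 T-like, naive T-like, B-like, cDC2-like and gamma-delta T-like cells, 0 passed 1.5-fold. In these classes between 5.04% (NK-like) and 11% (gamma-delta T-like) of all measured genes did.

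Genes that regulate class I transcription, such as the interferon gamma receptor, JAK kinases and IRF factors, are 14 in number. In macrophage-like cells 6 of 10 measured were at least 1.5-fold higher in Tdg_KO (median log2 ratio 0.62), where 15.6% of all measured genes were. Of the 10, 3 had an interval above 1, where 27.6% of all measured genes had an interval apart from 1 in either direction. Irf1 was among the 6, at 36.6 CPM in Tdg_KO and 13.4 CPM in Tdg_WT (2.74, 1.43 to 5.60), with 51 UMIs. Its ratio was 0.813 (0.645 to 1.02) in neutrophil-like and 0.781 (0.652 to 0.936) in CD8 T-like cells. In neutrophil-like cells 3 of 12 passed, all higher (median 0.43), where 20.7% of all measured genes were that much higher. Nfkb1 was at 352 CPM in Tdg_KO and 144 CPM in Tdg_WT (2.45), while Ifngr1, the receptor chain with the most UMIs, was at 359 and 253 CPM (1.42, 1.22 to 1.65). In NK-like cells 2 of 14 passed, both higher, and the median was 0.11, where 5.04% of all measured genes passed in either direction. GTPases that interferon gamma induces restrict pathogens inside cells. Of these, 4 of 4 measured were at least 1.5-fold higher in Tdg_KO in macrophage-like cells and 3 of 4 in neutrophil-like cells. The shares of all measured genes that much higher were 15.6% and 20.7%. Gbp7 was at 101 CPM in Tdg_KO and 39.1 CPM in Tdg_WT macrophage-like cells, a ratio of 2.59 (1.77 to 3.85). In B-like cells 4 of 6 GTPase genes were at least 1.5-fold lower in Tdg_KO (Gbp2 0.446), where 3.71% of all measured genes were. In naive T-like cells 3 of 11 were lower (Iigp1 0.422), where 4.12% of all measured genes were that much lower.

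Of 12 other class I heavy chain genes, 11 were listed and few were measured in a class. In macrophage-like cells 1 of 5 passed, H2-M2, at 108 CPM in Tdg_KO and 38.0 CPM in Tdg_WT (2.83, 1.94 to 4.23). There 21.2% of all measured genes passed in either direction. In neutrophil-like cells 1 of 3 passed and was lower in Tdg_KO, H2-Q10, at 178 and 349 CPM (0.509, 0.422 to 0.611). There 26.9% of all measured genes passed in either direction. In Treg-like cells H2-Q10 was also lower, with a ratio of 0.524. MHC class II genes present peptides from outside the cell. In macrophage-like cells 5 of 8 measured were at least 1.5-fold higher in Tdg_KO. The count was 5 of 5 in neutrophil-like, 4 of 6 in CD8 T-like and 4 of 4 in gamma-delta T-like cells. The shares of all measured genes that much higher in these classes were 15.6%, 20.7%, 4.73% and 8.18%, in that order. In NK-like cells 0 of 7 passed, and Cd74 was at 166 CPM in Tdg_KO and 246 CPM in Tdg_WT (0.677, 0.627 to 0.732). In cDC2-like cells 0 of 10 passed, 6 had intervals below 1 and 2 above 1, with Cd74 at 10252 and 11920 CPM (0.860) and H2-Aa at 0.881. Of all measured genes in cDC2-like cells, 10.2% passed and 24.8% had an interval apart from 1, in either direction. T cells make little class II RNA, and macrophage markers summed to 205 CPM in Tdg_KO and 106 CPM in Tdg_WT CD8 T-like cells, whose part was not tested. Cd74, the invariant chain, was at 24855 and 14989 CPM in macrophage-like cells, a ratio of 1.66. C1qa, a leading gene of 1 of the macrophage-like clusters, was at 4463 and 2764 CPM in the same cells. The part of the cluster proportions in the class II values was not tested.

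**Figure D5:**
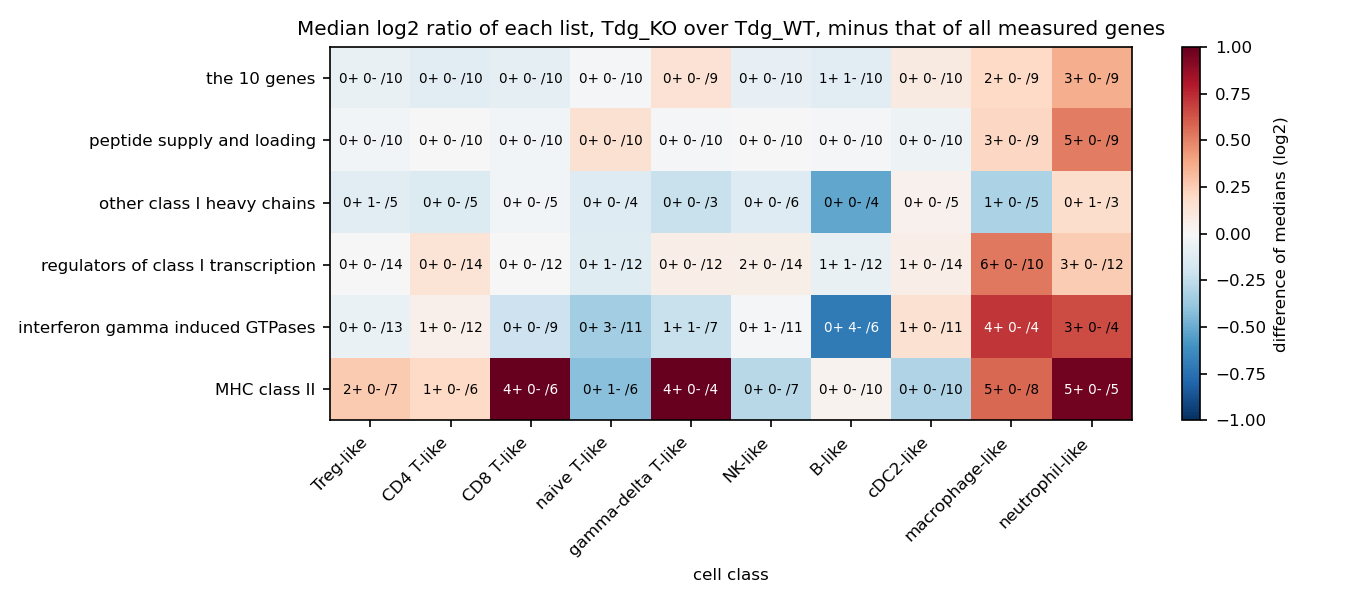
Median log2 ratio, Tdg_KO over Tdg_WT, of the 10 genes and of 5 other lists (rows) in 10 cell classes (columns), minus the median of all measured genes of the class, with red for higher and the darkest colours for any difference of 1 or more. Each cell gives the number at least 1.5-fold higher (+), the number at least 1.5-fold lower (-) and the number measured (/). The first rows are pale in NK-like, CD4 T-like, Treg-like and CD8 T-like cells, and 5 of 6 lists are red in macrophage-like and all 6 in neutrophil-like cells.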

How the data were processed

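The files hold, per library, a sparse matrix of raw UMI counts by gene and barcode, as the authors deposited them. Per the file headers they were made with Cell Ranger 6.0.1, and the submitters' processing notes also name Seurat and the build mm10. The gene annotation used in counting is not given in the sources used here. Rows of one symbol were summed, 32285 listed genes giving 32245 symbols. Cells needed at least 200 genes and a mitochondrial share of 10% or less. The libraries were clustered jointly with scanpy 1.11.5 (2000 variable genes, 30 components, 15 neighbours, Leiden resolution 1), and the variable genes left out the 10 genes, peptide supply genes, other heavy chains and interferon GTPases. Lymphoid clusters and mononuclear phagocyte clusters were clustered again, and a name needed 3 or more markers, each seen in 10% of the cells. Clusters with T cell and phagocyte (or T and B cell) genes in at least 50% of barcodes stayed unnamed, as did T cell clusters with genes of CD8 T cells and of CD4 or regulatory T cells in at least 25% of barcodes, and clusters led by proliferation genes, interferon genes or markers of another class, or with few UMIs.

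Levels are the summed UMIs of a gene in a class of 1 library over all UMIs of that class (CPM). Ratios have exact conditional Poisson intervals, levels exact Poisson intervals and shares exact Clopper-Pearson intervals, all at 95%. The ratio code was tested on simulated data. A gene was counted from 50 UMIs over both libraries, and 1.5-fold was the threshold for counts. All 10 genes were described. From other lists, those with the most UMIs or the most extreme ratio in a class were named. Some genes that this rule or the ranking by likeness would name are not reported here. The genes, lists, markers and alternatives were chosen with earlier results of these data known. A setting without barcodes that hold a T cell marker UMI was added after the data were seen.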

Additional observations from a re-analysis of the deposited data

Results flagged for a closer look

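The H2-K1 ratio, Tdg_KO over Tdg_WT, was 1.61 in neutrophil-like cells and 0.960 in CD4 T-like cells, with intervals on opposite sides of 1, and the difference between these classes was not tested. The Tap2 ratio was 1.22 in cDC2-like cells and 0.627 in B-like cells, and that difference was not tested either.

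Outside the compared classes, 22 Tdg_KO and 19 Tdg_WT barcodes were named epithelial-like from keratin genes, although the sort was for CD45-positive cells. Of these, 9 and 4 held a UMI of Ptprc, the gene for CD45. Summed over the barcodes, H2-K1 was at 2124 CPM in Tdg_KO and 644 CPM in Tdg_WT, a ratio of 3.30 (2.80 to 3.90). For H2-D1 the ratio was 2.83 (2.41 to 3.35) and for B2m 3.12 (2.66 to 3.67). The ratio was 3.62 (2.26 to 6.10) for H2-T23 and 2.97 (1.84 to 5.03) for Tapbp. It was lower for H2-Q7, at 2.19 (1.40 to 3.57), and held 1 within the interval for H2-Q6, at 1.14 (0.593 to 2.30), and for Nlrc5, at 2.90 (0.645 to 26.7). It was 10.0 for Tap1, with 83 UMIs in Tdg_KO and 4 in Tdg_WT, and 1 barcode gave 72.3% of the Tdg_KO UMIs. For Tap2 the ratio was 18.8 (3.19 to 763), with 39 UMIs in Tdg_KO and 1 in Tdg_WT. The median H2-K1 level per barcode was 1518 CPM in Tdg_KO and 676 CPM in Tdg_WT. Without the barcodes that held Ptprc, H2-K1 was at 1386 CPM over 13 Tdg_KO barcodes and 366 CPM over 15 Tdg_WT barcodes. Depth ran between 865 and 195160 UMIs per barcode in Tdg_KO and between 530 and 92863 in Tdg_WT, so a few barcodes set these sums. In Tdg_KO, 1 barcode gave 73.3% of the UMIs of H2-T23, 1 gave 56.1% for Tapbp and 1 gave 47.7% for H2-K1. The ratios of all genes in these barcodes are not given here. Cells in the same droplet were not separated, and their part was not tested.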

How the results depend on the processing

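No paired analysis was possible because each genotype has 1 library and no result comes from a test across replicates. The median log2 ratio of the genes stayed above 0 in neutrophil-like, macrophage-like, cDC2-like and gamma-delta T-like cells under every setting run. In the other 6 classes it lay between -0.14 and 0.05, with either sign in B-like, CD8 T-like and naive T-like cells. The neutrophil-like median was 0.17 after thinning to 1000 UMIs per cell, against 0.54. The macrophage-like median was 0.58 where clusters of mixed genes were named too, against 0.29. With a threshold of 0.32 in log2 in place of 1.5-fold, the count of genes past the threshold was 6 in neutrophil-like, 4 in macrophage-like, 3 in cDC2-like and 2 in gamma-delta T-like cells, where 54.2%, 43.0%, 31.0% and 34.4% of all measured genes passed.

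Of 97 measured pairs of a gene and a class, 55 had an interval that held 1, and 33 of these crossed 1 under some setting, among them H2-Q7 in macrophage-like cells (0.930, and 1.70 with mixed clusters named) and Nlrc5 in CD4 T-like cells (1.12, and 0.711 after thinning). The other 42 pairs had an interval apart from 1. Per class, between 13.7% (B-like) and 36.0% (neutrophil-like) of all measured genes had such an interval. Of the 42 pairs, 10 crossed 1, as follows. After thinning, H2-T23 was at 0.988 in neutrophil-like, 1.03 in CD8 T-like and 1.23 in cDC2-like cells, and H2-Q6 at 0.844 in gamma-delta T-like cells. With median ratio scaling, H2-Q7 was at 0.994 in CD4 T-like and H2-D1 at 0.968 in neutrophil-like cells. With every cell weighted equally, H2-D1 was at 0.950 in macrophage-like and H2-Q6 at 0.988 in gamma-delta T-like cells. Without barcodes holding a T cell marker UMI, H2-Q7 was at 0.949 in B-like cells, and B2m was at 0.999, H2-T23 at 1.03 and Tap2 at 0.875 in cDC2-like cells. Tap2 in neutrophil-like cells was at 0.642 with every cell weighted equally, against 0.992. The cause was not tested. Median ratio scaling moves all ratios of a class by the median of all genes, which passed 0.1 in log2 in neutrophil-like (0.18) and cDC2-like cells (0.12).

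Depth limits Nlrc5, which was under 50 UMIs in neutrophil-like, macrophage-like and gamma-delta T-like cells. After thinning, 6 genes were still measured in neutrophil-like cells.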
